A study of Mus musculus and Homo sapiens with 9 samples.

Results

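DDX and DHX genes encode the DEAD and DEAH box helicases, enzymes that use ATP to unwind RNA or to remodel complexes of RNA and protein. The genes described were all autosomal protein-coding genes named DDX or DHX followed by a number and at most 1 letter, without DDX5, DDX17 and DHX9. This rule gave 48 of 20807 autosomal protein-coding genes in mouse (GENCODE M21, mm10) and 48 of 19111 in human (GENCODE 44, hg38). Of these, 47 were matched by name between the species, with mouse Ddx39 taken as DDX39A, while Ddx58 was matched only in mouse and DDX60L only in human. The rule used names alone and no measured value.

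The libraries were made by CUT&Tag, which uses an antibody to tether a transposase beside the antigen in permeabilized cells, so that nearby DNA is tagged for sequencing. In mouse embryonic fibroblasts (MEFs), the S9.6 antibody against RNA-DNA hybrids was applied to Mcm8 wildtype (WT) cells, Mcm8 knockout (KO) cells, cells with a control shRNA (shControl) and cells with knockdown of Ddx5 (shDdx5), and a library from MEFs labelled wildtype had no primary antibody. The MEFs came from embryos of Mcm8 heterozygous crosses on a mixed C57BL/6J and ICR background and were immortalized with SV40, and the shRNA against Ddx5 was delivered by adenovirus. In HEK293 cells, a human embryonic kidney line labelled wildtype throughout, the libraries were mouse IgG, anti-FLAG after transfection of a FLAG-MCM8 plasmid, S9.6, and S9.6 after transfection of an RNH1 plasmid. In the study's usage RNH1 stands for RNase H1, which cuts the RNA strand within RNA-DNA hybrids. MCM8 is a helicase related to the replicative MCM proteins. Each of the 9 groups was 1 library, so no difference below has a replicate check and none was tested. The peak lists hold no measure of RNA, so neither the knockout nor the knockdown could be checked in them.

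An R-loop is a stretch in which RNA pairs with the template strand of DNA and leaves the other strand single, and such hybrids are known to be common near the start of transcribed CpG-rich genes. Several DEAD and DEAH box proteins are known to act on R-loops, among them DDX5, DHX9 and DDX41, of which DDX41 is in the set described. Proteins of the family also work in ribosome assembly, splicing, mRNA export, translation and innate immunity. Here the measurement was at the genes of these helicases, not of the proteins. A gene was counted as having a promoter peak when the midpoint of at least 1 deposited peak lay within 1 kb of a transcription start site (TSS) of the gene.

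The stretches below are shown to give the sequence that the peaks of several lists had in common at helicase genes. Each is the longest part shared by all the named lists that no annotated exon covers, cut to the 150 bases nearest the gene start where longer, and written 5′ to 3′ on the strand of the gene. Capitals mark CCGGAAG, the core of the site bound by ETS transcription factors, which was searched on both strands after these stretches had been seen. Ddx54 and Ddx42 are shown for peaks in all 4 S9.6 MEF lists, mouse Ddx50 for peaks in KO, shControl and shDdx5, human DDX50 for peaks in S9.6 and RNH1, and DDX59 for peaks in FLAG-MCM8, S9.6 and RNH1. The Ddx42 stretch ends 264 bases before the gene, the DDX59 stretch lies in an intron, and the others end at the annotated gene start. No summit lay in any of them, and Dhx30, with peaks in all 4 S9.6 MEF lists, had no shared base outside exons.
Ddx54, mm10 chr5:120612599-120612738, plus strand: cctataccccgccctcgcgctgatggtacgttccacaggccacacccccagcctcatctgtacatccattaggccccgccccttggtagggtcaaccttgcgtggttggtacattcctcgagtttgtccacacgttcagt
Ddx42, mm10 chr11:106216519-106216661, plus strand: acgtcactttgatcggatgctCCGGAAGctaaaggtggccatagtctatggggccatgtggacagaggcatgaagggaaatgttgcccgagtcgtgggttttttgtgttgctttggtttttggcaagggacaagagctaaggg
Ddx50, mm10 chr10:62651219-62651294, minus strand: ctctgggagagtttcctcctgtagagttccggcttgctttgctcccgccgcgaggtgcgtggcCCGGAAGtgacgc
DDX50, hg38 chr10:68901136-68901285, plus strand: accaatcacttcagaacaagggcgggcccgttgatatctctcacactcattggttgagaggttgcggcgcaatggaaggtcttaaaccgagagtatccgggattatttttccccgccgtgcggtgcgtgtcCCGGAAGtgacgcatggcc
DDX59, hg38 chr1:200669709-200669766, minus strand: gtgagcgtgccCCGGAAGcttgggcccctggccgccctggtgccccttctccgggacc

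The letters CCGGAAG occurred once in each of these stretches other than that of Ddx54, which held none. The longest run shared by the mouse Ddx50 and human DDX50 stretches was 14 bases, cCCGGAAGtgacgc, and lay in both at the end next to the gene. In windows from 250 bases before to 50 after the annotated gene start, CCGGAAG occurred on either strand in 25.0% of the mouse DDX and DHX genes and 11.0% of all mouse genes, and in 29.2% of the human ones and 11.9% of all human genes. Among the mouse helicase genes the share was 25.0% with an S9.6 promoter peak and 25.0% without, and among the human ones 34.6% with and 22.7% without. Over all genes it was 16.1% with and 8.29% without in mouse, and 15.4% with and 9.82% without in human. A match of letters is not a bound site.

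The lists held 6481 (WT), 9605 (KO), 12259 (shControl), 11768 (shDdx5) and 4314 (no antibody) peaks in MEFs and 17178 (IgG), 13295 (FLAG-MCM8), 15147 (S9.6) and 12497 (RNH1) in HEK293. The MEF lists reached a p of 0.001 and the HEK293 lists a p of 1e-05, so the cell types were not compared by counts. The deposited fold and p of a peak together give the whole number of fragments piled up at its summit and the local background expected there. By this the weakest peaks of the 4 S9.6 MEF lists rested on 6 or 7 fragments and those of the HEK293 lists on 10 to 14. The lowest background was 1.53 fragments in WT, 1.31 in KO, 1.45 in shControl, 1.67 in shDdx5 and 0.191 without antibody, so by this measure depth was highest in shDdx5 and lowest without antibody, and its part in the counts below was not tested. A gene without a peak may therefore have held a few fragments fewer than a gene with one.

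The helicase genes had promoter peaks in all 4 S9.6 lists of the MEFs and none in the list without antibody. In WT 12 of the 48 had one (25.0%, against 11.8% of all genes), in KO 11 (22.9% against 16.7%), in shControl 8 (16.7% against 15.3%) and in shDdx5 22 (45.8% against 24.0%). Without antibody the share of all genes was 1.28%. The helicase genes thus lay above the background share in each S9.6 list, least so in shControl. With peaks of a fold of at least 4 this held in WT (12.5% against 4.69%) and shDdx5 (18.8% against 11.8%) and turned in KO (6.25% against 7.32%) and shControl (4.17% against 5.82%). They also had more annotated start sites than other genes, a median of 4 against 3 in mouse and 10 against 5 in human, which gives them more windows in which a peak can fall. With the annotated gene start alone, the shares were 20.8% against 9.65% in WT and 20.8% against 14.1% in KO. On the same terms they were 16.7% against 12.2% in shControl and 41.7% against 20.6% in shDdx5. The part that start sites play in the shares was not tested. In at least 1 of the 4 S9.6 lists, 28 of the 48 genes had a promoter peak (58.3% against 35.2% of all genes).

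**Figure D1:**
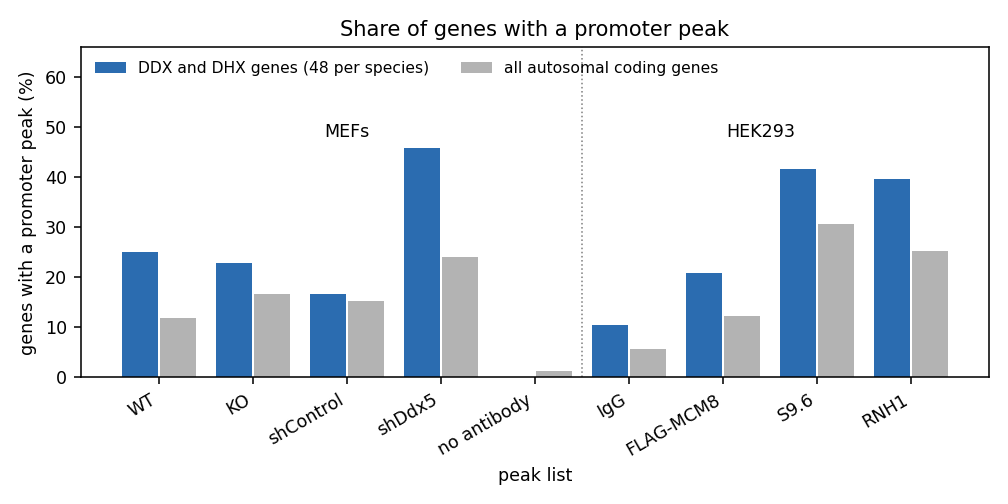
The bars give the percentage of genes with a promoter peak (vertical axis, from 0) in each of the 9 peak lists, for the 48 DDX and DHX genes of the species and for all autosomal coding genes, with 1 library per list. The pair of bars is farthest apart in shDdx5, at 45.8% and 24.0%, and nearest in shControl, at 16.7% and 15.3%, among the S9.6 lists of MEFs.

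With only peaks of a q (the p as MACS2 corrected it for multiple testing) of 0.05 or lower, the counts were 8 in WT, 5 in KO, 6 in shControl, 13 in shDdx5 and 0 without antibody. The shares of all genes on the same terms were 6.62%, 10.3%, 8.02%, 19.3% and 0.135%. The 5 genes of KO made 10.4% of the 48, close to the share of all genes.

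Genes with roles in ribosome biogenesis were the largest group, and 10 of its 16 mouse members had an S9.6 promoter peak in at least 1 list (62.5%, against 35.2% of all genes). Of these, 3 had one in WT (Ddx54, Ddx55, Dhx37), 5 in KO (Ddx10, Ddx24, Ddx27, Ddx50, Ddx54), 3 in shControl (Ddx50, Ddx54, Dhx37) and 8 in shDdx5, in which Ddx31, Ddx47 and Dhx33 joined the 5 of KO. Ddx18, Ddx21, Ddx49, Ddx51, Ddx52 and Ddx56 had none. Of the 11 genes of splicing, 9 had a peak in at least 1 list (81.8%, against the same 35.2%), with 5 in WT (Ddx39, Ddx42, Dhx15, Dhx16, Dhx35), 3 in KO (Ddx42, Dhx15, Dhx35), 1 in shControl (Ddx42) and 7 in shDdx5 (Ddx23, Ddx39, Ddx41, Ddx42, Ddx46, Dhx16, Dhx38). Set against the shares of all genes per list (11.8% for WT, 16.7% for KO, 15.3% for shControl, 24.0% for shDdx5), 3 of 16 (18.8%) in WT or shControl was near the background for ribosome biogenesis and 1 of 11 (9.09%) in shControl was below it for splicing. Ddx39b, which encodes the export and splicing helicase UAP56, and Dhx8 had none.

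Of the 9 genes with roles in mRNA export, translation, decay or tRNA processing, 3 had a peak in at least 1 list (33.3%, near the 35.2% of all genes): Ddx20 in WT and shDdx5, Ddx6 in KO and Ddx25 in shControl. Ddx20 encodes Gemin3 of the SMN complex, Ddx6 a helicase of mRNA decapping and Ddx25 a helicase of the testis. The place of Ddx20 in this group and not with splicing, in both species, is a choice of the role lists. Ddx1, Ddx19a, Ddx19b, Dhx29, Dhx34 and Dhx36 had none. Of the innate immune genes Dhx58, which encodes LGP2, had a peak in shDdx5, while Ddx58, which encodes the RNA sensor RIG-I, and Ddx60 had none. Both mitochondrial genes had peaks, Dhx30 in all 4 S9.6 lists and Ddx28 in shControl and shDdx5. Ddx4, Ddx11 and Ddx43, of the germline and of DNA, had none, and of the other 4 genes Ddx59, Dhx40 and Dhx57 had peaks and Dhx32 had none. For these last groups the share of all genes was the same 35.2%, and each holds too few genes to be set against it.

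**Figure D2:**
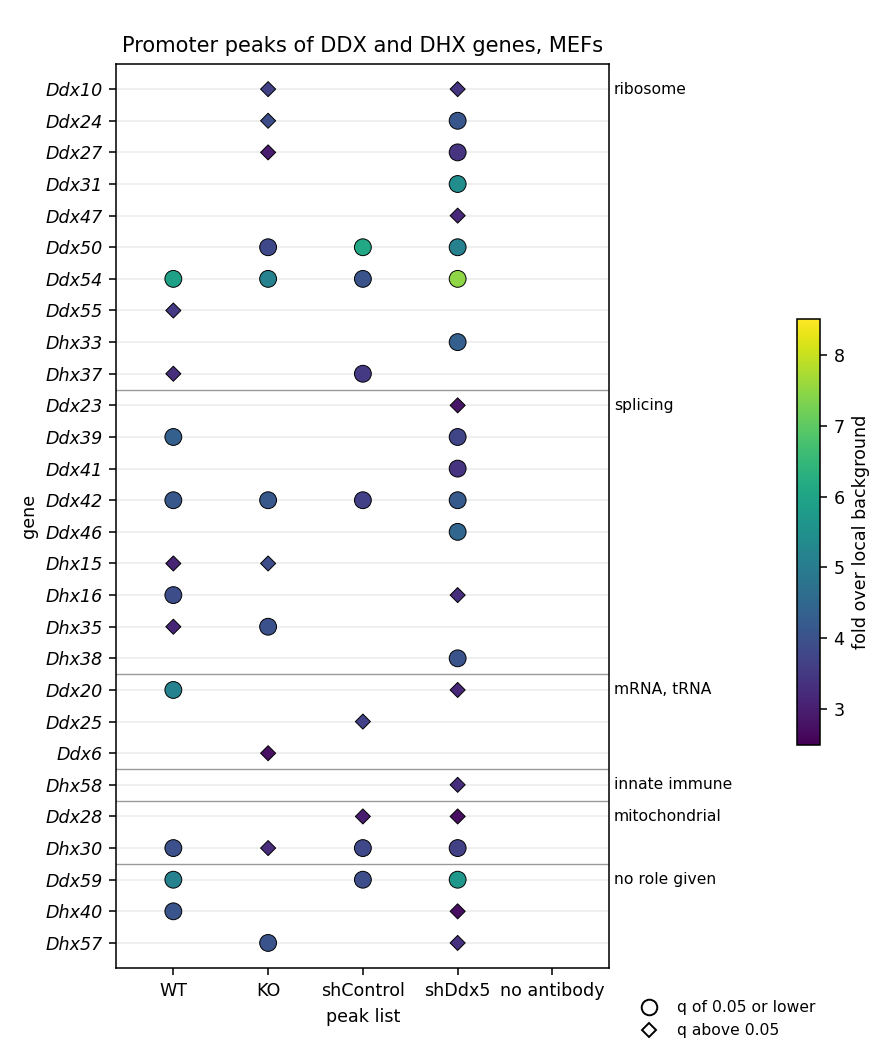
Each row is 1 of the 28 mouse genes with a promoter peak, grouped by role, and each column 1 of the 5 MEF peak lists. The colour gives the fold over local background, circles mark a q of 0.05 or lower, diamonds a higher q, and where a gene had more than 1 peak in a list the one with the lowest q is drawn. Ddx54, Ddx42 and Dhx30 fill all 4 S9.6 columns, and the column without antibody is empty.

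Ddx54, Ddx42 and Dhx30 had a promoter peak in all 4 S9.6 lists, which was 3 of 48 genes (6.25%) against 4.41% of all genes. Ddx54 encodes a nucleolar helicase of ribosome biogenesis and held the strongest helicase peak of WT, KO and shDdx5. In WT its peak (chr5:120612597-120613358) had a fold of 5.93, a −log10 q of 10.2 and 28 fragments at the summit, with an exact 95% Poisson interval of 18.6 to 40.5. In KO the peak (chr5:120612574-120613390) had a fold of 5.15, a −log10 q of 6.39 and 22 fragments (13.8 to 33.3). These WT and KO intervals overlap, and they cover counting error only.

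In shControl the Ddx54 peak (chr5:120612599-120613313) had a fold of 4.04, a −log10 q of 3.31 and 19 fragments (11.4 to 29.7). In shDdx5 the peak (chr5:120612574-120613358) had a fold of 7.48, a −log10 q of 21.2 and 44 fragments (32.0 to 59.1), over an expected background of 5.02 against 3.95 in shControl. The 2 intervals did not overlap, and shDdx5 was the high library of the 4. The intervals are not scaled for depth and do not allow for each summit being the highest point of its peak. The 4 summits lay 114 to 147 bases inside the annotated gene, within 33 bases of one another and in exon sequence that is not coding. Each of these peaks also lay at the promoter of Rita1, which starts close by on the opposite strand, and the lists do not assign a peak to a strand.

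Ddx42, whose product joins the SF3b complex of the spliceosome, had peaks of nearly the same size in the 4 lists. The fold was 4.13 in WT (chr11:106216297-106216661), 4.13 in KO (chr11:106216519-106217028), 3.64 in shControl (chr11:106216272-106217044) and 4.18 in shDdx5 (chr11:106216194-106217028). The −log10 q was 2.16, 2.55, 1.31 and 3.70, and the fragments at the summit numbered 13, 14, 11 and 17, in the same order. The summits were less fixed than those of Ddx54, at 580 bases before the gene start in WT, 157 before it in KO, 533 before it in shControl and 7 bases inside it in shDdx5. The gene Ccdc47 shares this promoter.

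Dhx30, for a helicase of mitochondrial ribosome assembly, had a fold of 3.96 in WT (chr9:110117149-110117544), 3.26 in KO (chr9:110117504-110117770), 3.80 in shControl (chr9:110117413-110117663) and 3.66 in shDdx5 (chr9:110117196-110117675). The −log10 q was 1.92, 1.01, 1.61 and 2.08, so the KO peak did not reach a q of 0.05, with 11 fragments against 13, 12 and 13. Summits lay 632, 87, 290 and 630 bases inside the gene, and Smarcc1 shares the promoter. For neither Ddx42 nor Dhx30 did any list stand apart in fragments, and the ratio of the highest to the lowest fold was 1.15 for Ddx42 and 1.21 for Dhx30, against 1.85 for Ddx54.

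**Figure D3:**
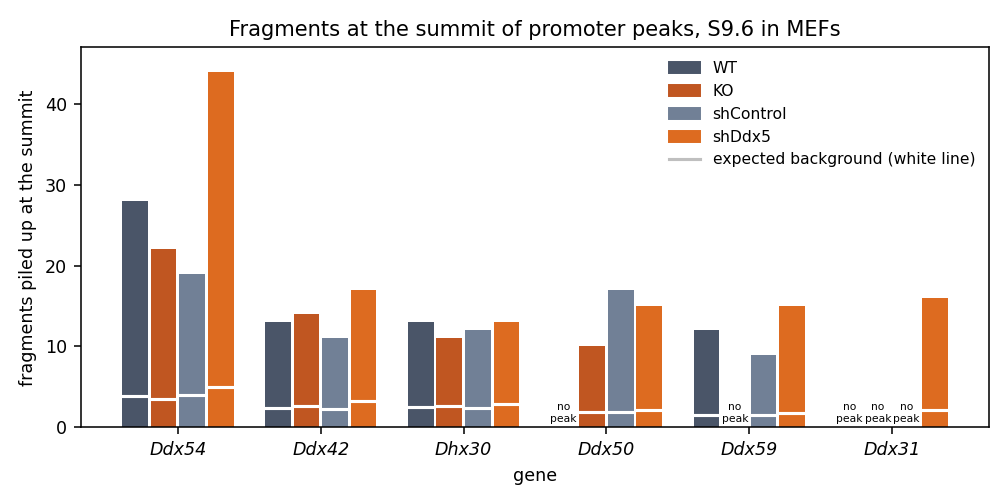
Bars give the fragments piled up at the summit (vertical axis, from 0) of the promoter peak of 6 genes in the 4 S9.6 lists of MEFs, recovered from the deposited fold and p, and white lines the expected local background. Ddx54 stands at 44 fragments in shDdx5 against 19 in shControl, while Ddx42 and Dhx30 lie between 11 and 17 in every list.

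KO and WT share the study's question of whether loss of MCM8 changes where R-loops lie. Here 5 helicase genes had a promoter peak in both lists (10.4% against 6.98% of all genes), namely Ddx42, Ddx54, Dhx15, Dhx30 and Dhx35. In KO and not in WT there were 6, Ddx10, Ddx24, Ddx27, Ddx50, Ddx6 and Dhx57 (12.5% against 9.75%). In WT and not in KO there were 7, Ddx20, Ddx39, Ddx55, Ddx59, Dhx16, Dhx37 and Dhx40 (14.6% against 4.86%). Over all genes KO therefore had the larger number, and over the helicase genes the counts were nearly equal, with a difference of -1 (KO minus WT). The difference was -3 with a q of 0.05 or lower (5 against 8), with a fold of at least 4 (3 against 6) and with equal numbers of peaks (9 against 12).

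Of the genes found in KO and not in WT, Ddx50 and Dhx57 reached a q of 0.05. Ddx50 encodes a nucleolar paralogue of DDX21, and its KO peak (chr10:62650937-62651294) had a fold of 3.79, a −log10 q of 1.41 and 10 fragments, with the summit 102 bases inside the gene. Dhx57 had a KO peak (chr17:80289944-80290271) with a fold of 4.04, a −log10 q of 1.52 and 9 fragments, 96 bases before the nearest TSS, at a promoter shared with Morn2. The weakest peaks of the KO list had 6 fragments.

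Of the genes found in WT and not in KO, 5 reached a q of 0.05. Ddx20 (chr3:105687438-105687742) and Ddx59 (chr1:136415183-136415621) each had a fold of 5.15, a −log10 q of 3.27 and 12 fragments, with summits 5 and 41 bases before the gene start, and came next after Ddx54 among the helicase peaks of WT. Ddx39, for a helicase of mRNA export, had a fold of 4.31 and a −log10 q of 2.41 (chr8:83715212-83715488), 58 bases past the nearest TSS. Dhx40 had a fold of 4.07 and a −log10 q of 1.72 (chr11:86807866-86808141), 156 bases before the gene. Dhx16, for the helicase that activates the spliceosome, had a fold of 3.89 and a −log10 q of 1.69 (chr17:35879928-35880401), in coding exon sequence 202 bases past a TSS. All 5 had a promoter peak in shDdx5 as well, and Ddx59 also in shControl. In shDdx5 the peaks of Ddx20, Dhx16 and Dhx40 did not reach a q of 0.05 (−log10 q 0.845, 1.13 and 0.442). The Dhx40 peaks of WT and shDdx5 did not overlap.

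Shared names did not always mean shared places. The WT peak of Dhx35, for a helicase of the catalytic spliceosome, lay in an intron near an internal TSS 55242 bases from the gene start (fold 3.15, −log10 q 0.410). Its KO peak (chr2:158794572-158795013) lay 44 bases inside the gene, with a fold of 3.98, a −log10 q of 1.62 and 10 fragments. The peaks of Dhx15, for the helicase that takes spliceosomes apart, overlapped between WT (fold 3.09, 7 fragments) and KO (fold 3.90, 8 fragments), and neither reached a q of 0.05.

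Between shDdx5 and shControl the helicase genes differed most. Promoter peaks in both lists were found at 6 genes, Ddx28, Ddx42, Ddx50, Ddx54, Ddx59 and Dhx30 (12.5% against 10.2% of all genes). In shDdx5 and not in shControl there were 16, Ddx10, Ddx20, Ddx23, Ddx24, Ddx27, Ddx31, Ddx39, Ddx41, Ddx46, Ddx47, Dhx16, Dhx33, Dhx38, Dhx40, Dhx57 and Dhx58 (33.3% against 13.8%). In shControl and not in shDdx5 there were Ddx25 and Dhx37 (4.17% against 5.16%). The difference in counts was 14 (shDdx5 minus shControl). It fell to 5 when each S9.6 MEF list was held to its 6481 strongest peaks, with 12 genes in shDdx5 (25.0% against 18.4% of all genes) and 7 in shControl (14.6% against 11.3%), and to 7 with peaks of a q of 0.05 or lower. The lists had similar numbers of peaks, but 4652 in shDdx5 and 2946 in shControl lay at promoters.

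Of the 16 genes, 8 reached a q of 0.05 in shDdx5. The strongest was Ddx31, a gene of ribosome biogenesis, with a fold of 5.41, a −log10 q of 5.38 and 16 fragments (chr2:28839898-28840441), 367 bases before the gene at a promoter shared with Gtf3c4. Ddx46, for a helicase of early spliceosome assembly, had a fold of 4.45, a −log10 q of 3.17 and 13 fragments (chr13:55634965-55635455), 39 bases past the TSS. Ddx39 had a fold of 3.74, a −log10 q of 2.76 and 16 fragments (chr8:83715108-83715488). Dhx38, for the helicase of the second splicing step, had a fold of 4.02, a −log10 q of 2.58 and 13 fragments (chr8:109565664-109566115), at a promoter shared with Txnl4b.

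Dhx33, known for a role in rRNA synthesis, had a fold of 4.29, a −log10 q of 2.52 and 11 fragments in shDdx5 (chr11:71003972-71004434), 50 bases past a TSS. Ddx41, for a splicing helicase known for inherited risk of leukaemia, had a fold of 3.40, a −log10 q of 2.39 and 17 fragments (chr13:55536529-55536791). Ddx24 had a fold of 4.11, a −log10 q of 2.09 and 10 fragments (chr12:103425981-103426295). Ddx27 had a fold of 3.39, a −log10 q of 1.42 and 11 fragments (chr2:167015885-167016342), with the summit 998 bases from its nearest TSS. The remaining 8 genes had 7 to 10 fragments each, near the 7 of the weakest peaks of that list.

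Ddx50 and Ddx59 had peaks in both lists and differed between them in opposite directions. For Ddx50 the shControl peak (chr10:62650982-62651598) had a fold of 6.09, a −log10 q of 6.17 and 17 fragments and was the strongest helicase peak of that list, and the shDdx5 peak (chr10:62650800-62651581) had a fold of 5.09, a −log10 q of 4.61 and 15 fragments. For Ddx59, whose human counterpart is known as a gene of orofaciodigital syndrome, the shControl peak (chr1:136414886-136415265) had a fold of 3.92, a −log10 q of 1.31 and 9 fragments, and the shDdx5 peak (chr1:136414999-136415553) a fold of 5.70, a −log10 q of 5.51 and 15 fragments. The exact 95% Poisson intervals overlapped for both genes, at 9.90 to 27.2 and 8.40 to 24.7 fragments for Ddx50 and at 4.12 to 17.1 and 8.40 to 24.7 for Ddx59. Ddx28, for a helicase of mitochondrial ribosome assembly, had weak overlapping peaks of 9 and 8 fragments in its coding exon.

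Dhx37, for the helicase that releases the U3 RNA from the small ribosomal subunit precursor, was the 1 gene with a peak in WT and shControl and in neither KO nor shDdx5 (2.08% against 0.384% of all genes). In shControl it had a peak of fold 3.51, −log10 q 1.43 and 13 fragments near an internal TSS (chr5:125426049-125426495) and a weaker one 283 bases before a TSS, and in WT a peak of fold 3.32 and 11 fragments, which overlapped neither. Ddx25 had a shControl peak of fold 3.68 and 8 fragments at a promoter shared with Pus3.

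The reverse pattern, with peaks in KO and shDdx5 and in neither WT nor shControl, was found at 4 genes, Ddx10, Ddx24, Ddx27 and Dhx57 (8.33% against 3.08% of all genes). All but Dhx57 are genes of ribosome biogenesis. The KO and shDdx5 peaks overlapped at Ddx10 and Dhx57 and did not at Ddx24 and Ddx27. At Ddx10 they had folds of 3.67 and 3.42 and rested on 8 and 9 fragments, and at Dhx57 the shDdx5 peak had a fold of 3.37 and 8 fragments. None of the 4 genes reached a q of 0.05 in both lists.

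In HEK293 cells, where all promoter peaks of the helicase genes had a q of 0.05 or lower, 20 of the 48 genes had a promoter peak in S9.6 (41.7% against 30.7% of all genes) and 19 in RNH1 (39.6% against 25.3%). Both lists held 13 of them (27.1% against 18.0%), and either list 26 (54.2% against 38.0%). The study included the RNH1 group as a check on the specificity of its R-loop mapping. Over all genes RNH1 had fewer promoter peaks than S9.6, and over the helicase genes the difference was -1 (RNH1 minus S9.6), or 1 when the window was cut to 500 bp.

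The 13 genes in both lists were DDX11, DDX19B, DDX20, DDX42, DDX50, DDX56, DDX59, DHX15, DHX30, DHX32, DHX38, DHX57 and DHX58, and at all but DHX58 the peaks of the lists overlapped. DDX50 had the strongest helicase peak of S9.6, with a fold of 6.69, a −log10 q of 20.7 and 45 fragments (chr10:68900791-68901439), against a fold of 4.12, a −log10 q of 7.26 and 28 fragments in RNH1 (chr10:68900917-68901542). The exact 95% Poisson intervals of 32.8 to 60.2 and 18.6 to 40.5 fragments overlapped, the expected background was 5.88 and 6.04, and the summits lay 163 and 189 bases before the gene. DDX42 went the other way, with a fold of 5.68, a −log10 q of 14.8 and 38 fragments in S9.6 (chr17:63773579-63774129) and a fold of 6.06, a −log10 q of 19.6 and 47 fragments in RNH1 (chr17:63773312-63774118), and these intervals overlapped too.

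In S9.6 and not in RNH1 there were 7 genes, DDX18, DDX23, DDX54, DDX55, DDX6, DHX35 and DHX37 (14.6% against 12.7% of all genes). DDX18, of ribosome biogenesis, had the largest fold of any helicase peak of S9.6, at 7.51, with a −log10 q of 14.4 and 27 fragments (chr2:117814446-117814763), 164 bases before the gene. DHX35 had a fold of 5.85 and a −log10 q of 8.81 (chr20:38962198-38962653), 51 bases before a TSS, and DDX6 a fold of 5.32 and a −log10 q of 7.83 (chr11:118790562-118790974), in an intron 185 bases past a TSS. DDX23, for the helicase that exchanges U1 for U6 at the splice site, had a fold of 3.78 and a −log10 q of 3.94 (chr12:48852031-48852316), and DHX37 a fold of 3.36 and a −log10 q of 3.93 in coding exon sequence (chr12:124947913-124948175).

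In RNH1 and not in S9.6 there were 6 genes, DDX19A, DDX21, DDX39B, DDX41, DDX51 and DHX34 (12.5% against 7.32% of all genes). DHX34, for a helicase of nonsense-mediated decay, had the strongest of these, with a fold of 6.20, a −log10 q of 13.4 and 31 fragments (chr19:47348848-47349296), 168 bases before the gene, and this peak overlapped an IgG peak. DDX19A, for a helicase of mRNA export at the nuclear pore, had a fold of 4.59 and a −log10 q of 7.56 (chr16:70346871-70347146). DDX51 had a fold of 3.75 and a −log10 q of 7.21 in coding exon sequence (chr12:132140368-132140710), and DDX21, of the nucleolus, a fold of 3.75 and a −log10 q of 6.50 (chr10:68955911-68956417). DDX41 had a fold of 3.83 and a −log10 q of 5.32 (chr5:177517356-177517854), 578 bases before the gene.

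**Figure D4:**
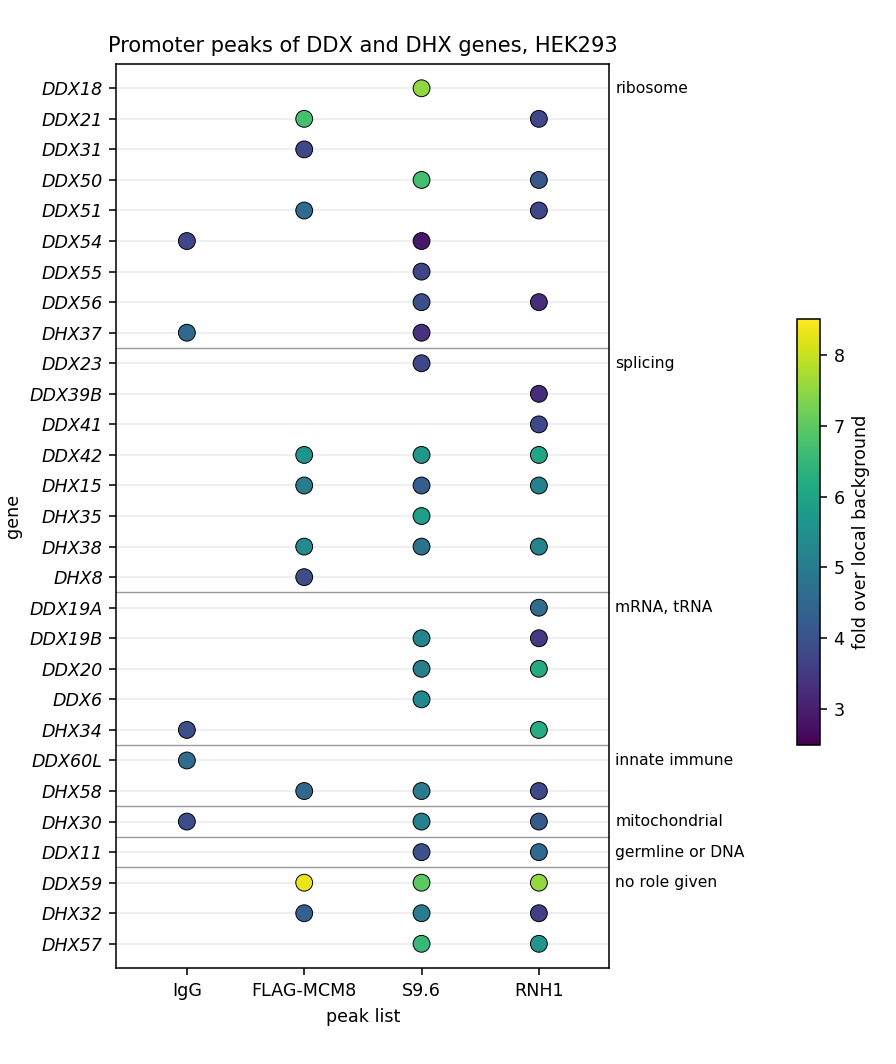
Each row is 1 of the 29 human genes with a promoter peak, grouped by role, and each column 1 of the 4 HEK293 peak lists. The colour gives the fold over local background, and where a gene had more than 1 peak in a list the one with the lowest q is drawn. DDX42, DDX59, DHX15, DHX32, DHX38 and DHX58 have a circle under FLAG-MCM8, S9.6 and RNH1, and none of the FLAG-MCM8 genes has one under IgG.

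The study took FLAG-MCM8 peaks as binding sites of the tagged MCM8 and asked whether such sites lie at R-loops. A FLAG-MCM8 promoter peak was found at 10 of the 48 genes (20.8% against 12.3% of all genes), namely DDX21, DDX31, DDX42, DDX51, DDX59, DHX15, DHX32, DHX38, DHX58 and DHX8. IgG had one at 5 (10.4% against 5.64%), and no gene was in both (0% against 1.29%). At DHX37 the IgG promoter peak overlapped a FLAG-MCM8 peak (chr12:124949477-124949812) whose midpoint fell outside the window, so this 0 depends on the rule. The difference was 5 genes (FLAG-MCM8 minus IgG). By role, these were 4 of the 11 splicing genes (DDX42, DHX15, DHX38, DHX8, 36.4%) and 3 of the 16 of ribosome biogenesis (DDX21, DDX31, DDX51, 18.8%). The share of all genes was 12.3%. IgG had 0 of the 11 splicing genes and 2 of the 16 of ribosome biogenesis (12.5%), against 5.64% of all genes.

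Promoter peaks in both FLAG-MCM8 and S9.6 were found at 6 genes, DDX42, DDX59, DHX15, DHX32, DHX38 and DHX58 (12.5% against 7.59% of all genes). All 6 were in RNH1 as well (12.5% against 5.99%), as were 1144 of the 1451 genes with both peaks over all genes. DDX59 held the strongest FLAG-MCM8 peak, with a fold of 8.31, a −log10 q of 14.2 and 24 fragments (chr1:200669504-200669929). It overlapped peaks of fold 6.99 and −log10 q 15.2 in S9.6 (chr1:200669524-200670497) and of fold 7.52 and −log10 q 14.9 in RNH1 (chr1:200669544-200670293), and the 3 summits lay 46 to 131 bases past the nearest TSS. DDX42 had a FLAG-MCM8 fold of 5.62 and a −log10 q of 6.72 (chr17:63773840-63774186), overlapping both other peaks, at the promoter shared with CCDC47.

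DHX38 had a FLAG-MCM8 fold of 5.36 and a −log10 q of 5.70 (chr16:72093653-72094093), an S9.6 fold of 4.75 and −log10 q of 6.16 (chr16:72093379-72094020) and an RNH1 fold of 5.17, with overlapping peaks at the promoter shared with TXNL4B. DHX32, whose function is poorly known, had a FLAG-MCM8 fold of 4.30 and a −log10 q of 4.61 (chr10:125895657-125896184) and an S9.6 fold of 5.00 and −log10 q of 14.2 (chr10:125895676-125896810), which overlapped at the promoter shared with FANK1. At the other 2 genes the peaks did not overlap. The FLAG-MCM8 peak of DHX15 (fold 4.98, chr4:24583967-24584205) lay beside its S9.6 peak (fold 4.28, chr4:24584499-24584816), and that of DHX58 (fold 4.52, chr17:42108328-42108576) lay at another TSS than its S9.6 peak (fold 4.96, chr17:42101730-42102080).

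Of the 4 genes with a FLAG-MCM8 promoter peak and none in S9.6, DDX21 had the second strongest FLAG-MCM8 peak, with a fold of 6.71, a −log10 q of 9.63 and 20 fragments (chr10:68956187-68956611), 14 bases past a TSS, and it overlapped the RNH1 peak. DDX51 had a fold of 4.58, DHX8, for the helicase that releases spliced mRNA, a fold of 3.92, and DDX31 a fold of 3.79, which rested on 10 fragments, the lowest number in that list.

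The 5 genes with an IgG promoter peak were DDX54, DDX60L, DHX30, DHX34 and DHX37. DHX37 had a fold of 4.54 and a −log10 q of 7.49 (chr12:124949416-124949762), DDX60L, for an antiviral helicase, a fold of 4.61 and a −log10 q of 6.01 (chr4:168380226-168380670), DHX30 a fold of 3.89 and a −log10 q of 5.90 (chr3:47848067-47848470), DHX34 a fold of 3.93 and a −log10 q of 5.34 (chr19:47348855-47349212) and DDX54 a fold of 3.75 and a −log10 q of 5.19 (chr12:113163609-113163988). All but DHX34 lay in introns near internal start sites. DDX54, DHX30 and DHX37 were also in S9.6 (6.25% against 2.72% of all genes), and at none of them did the S9.6 peak overlap the IgG peak. In at least 1 of the 4 HEK293 lists, 29 of the 48 genes had a promoter peak (60.4% against 43.6%).

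By role, 8 of 16 human genes of ribosome biogenesis, 7 of 11 of splicing and 5 of 9 of mRNA export, translation, decay or tRNA processing had a promoter peak in S9.6 or RNH1, against 38.0% of all genes. The 19 human genes without a promoter peak in any of the 4 lists were DDX1, DDX4, DDX10, DDX24, DDX25, DDX27, DDX28, DDX39A, DDX43, DDX46, DDX47, DDX49, DDX52, DDX60, DHX16, DHX29, DHX33, DHX36 and DHX40. Among these, DDX1 acts in tRNA ligation, DHX29 in translation initiation, and DHX36 on G-quadruplexes.

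Of the 47 genes named in both species, 16 had a promoter peak in at least 1 S9.6 MEF list and in S9.6 or RNH1, which was 34.0% against 26.0% of the 15161 genes with the same symbol in both annotations. These were DDX20, DDX23, DDX41, DDX42, DDX50, DDX54, DDX55, DDX59, DDX6, DHX15, DHX30, DHX35, DHX37, DHX38, DHX57 and DHX58. Some had peaks only near internal start sites, namely human DDX54 and DHX37, mouse Ddx55, and DHX58 in both species. The 9 with none in either were DDX1, DDX4, DDX43, DDX49, DDX52, DDX60, DHX29, DHX36 and DHX8. DDX54 shows how far a shared name can part from a shared place: in MEFs it had the strongest helicase peak, at its gene start, and in HEK293 cells its S9.6 peak (chr12:113162110-113162525) lay in an intron with the smallest fold of the helicase genes in that list, 2.86.

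Of the 97 promoter peaks of helicase genes in the 6 S9.6 lists, 80 had their summit within 1 kb of the annotated gene start and the others lay near internal start sites. Within that distance 14 summits lay inside the gene and 5 before it in shDdx5, 13 and 4 in S9.6, 10 and 6 in RNH1, and 5 and 5 in both WT and KO. The FLAG-MCM8 summits lay inside at 6 genes and before at 2. Of the IgG summits 1 of 5 lay within 1 kb of a gene start.

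**Figure D5:**
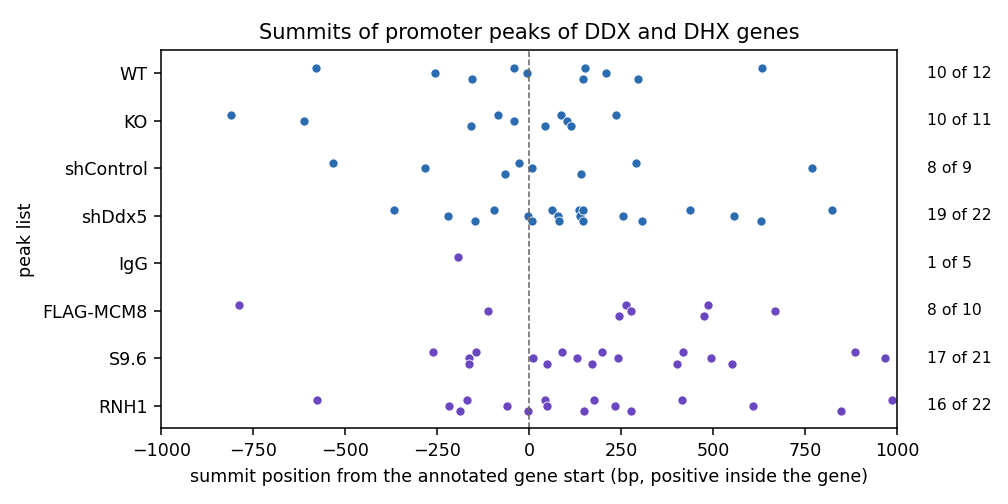
Each point is the summit of a promoter peak of a helicase gene, placed by its distance in bp from the annotated gene start (horizontal axis, positive inside the gene), in the 8 lists that had any. The numbers at the right count the peaks with summits inside the plotted range, from 1 of 5 in IgG to 19 of 22 in shDdx5.

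Helicase genes stood close to another start on the opposite strand more often than other genes. A coding gene that starts within 1 kb on the opposite strand was found at 10 of 48 in mouse (20.8% against 11.2% of all genes) and 13 of 48 in human (27.1% against 13.6%). Whether such a neighbour points away from the gene or overlaps it was not checked. In mouse, 7 of these 10 had an S9.6 promoter peak (70.0%) and 21 of the other 38 (55.3%), and over all genes the shares were 65.5% and 31.4%. In human, 7 of 13 had one (53.8%) and 19 of 35 (54.3%), and over all genes 62.0% and 34.3%. At these promoters a peak may belong to either gene. S9.6 peaks lay at a promoter shared with the same neighbour in both species at Ddx42 with Ccdc47, Dhx38 with Txnl4b and Dhx57 with Morn2. Here any TSS of either gene was counted, and human DDX42 was not among the 13 genes with an annotated start on the opposite strand within 1 kb.

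The promoters of helicase genes were rich in CpG. The median observed over expected CpG was 0.791 in mouse against 0.568 for all genes and 0.778 in human against 0.692. With and without an S9.6 promoter peak it was 0.791 and 0.781 among the mouse helicase genes and 0.737 and 0.362 among all mouse genes. The gap between genes with and without a peak was small among the helicase genes, and the part that CpG content plays in their shares of peaks was not tested.

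The 3 genes set apart by name and a list of 20 other helicases that act on RNA or R-loops were read the same way. Ddx5 had a promoter peak in KO (fold 3.94), shControl (4.02) and shDdx5 (3.69), Dhx9 in shControl (4.05) and Ddx17 in shDdx5 (4.07). Of the 20 other helicases, 3 had a promoter peak in WT (15% against 11.8% of all genes) and 2 in KO (10% against 16.7%). In shControl there were 7 (35% against 15.3%), in shDdx5 4 (20% against 24.0%) and without antibody 2 (10% against 1.28%). From shControl to shDdx5 the count went from 8 to 22 of 48 DDX and DHX genes and from 7 to 4 of these 20. Whether the groups of genes differ was not tested. In HEK293 cells, 11 of these 20 had an S9.6 promoter peak (55.0%, against 41.7% of the DDX and DHX genes), 8 an RNH1 one (40.0% against 39.6%), 4 a FLAG-MCM8 one (20% against 20.8%) and 3 an IgG one (15.0% against 10.4%). The shares of all genes in these lists were 30.7%, 25.3%, 12.3% and 5.64%, in the same order. DDX5 had one in all 4 lists, and DHX9 in S9.6 and RNH1. The IgG peak of DDX5 (chr17:64502966-64503570, fold 2.73) lay in coding exon sequence at another TSS and overlapped no peak of the other lists.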

How the data were processed

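CUT&Tag peak lists of 9 libraries, 1 per group, were analysed. The authors trimmed the reads, aligned them with Bowtie2 to mm10 (MEFs) or hg38 (HEK293) and called peaks per library with MACS2, for which the submitters' processing notes give version 2.1.2 and the paper another version. In MEFs the no-antibody library was not used as input, and the use of IgG as input is not stated in the sources used here. Per peak the authors deposited a fold (a ratio over the local background) and the −log10 of its p and q, and the summit as an offset from the peak start.

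From the files, promoter peaks were assigned by peak midpoint within 1 kb of a TSS of an autosomal protein-coding gene (GENCODE M21 or 44), and the summit pileup and background were solved from fold and p under the Poisson model of MACS2, checked on simulated peaks. Total read depths are not in the lists, and the exact Poisson intervals at 95% cover counting error only. MACS2 values depend on depth, and a fold adds 1 fragment to pileup and background, which lowers the folds of weak peaks. With 1 library per group no test was made between groups. The genes, role lists and naming rule were chosen with earlier results of these data known. By that rule every gene is named under its lists, with full values for genes in all 4 S9.6 MEF lists, in 1 list of a compared pair (q of 0.05 or lower in MEFs, the 5 strongest in HEK293), in FLAG-MCM8 and S9.6, in a control list, or with 1 of the 3 strongest helicase peaks of a list. The 8 alternatives and their effect are given in the closing section. Roles are textbook knowledge. Scripts used Python 3.11.15, pandas 2.3.3, numpy 2.4.6, scipy 1.17.1, matplotlib 3.10.9 and samtools 1.23.1.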

Additional observations from a re-analysis of the deposited data

Results flagged for a closer look

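Peaks inside helicase genes and away from their promoters were not part of the comparisons, and their number was above the control list in 4 lists. In MEFs there were 6 in KO, 9 in shControl and 6 in shDdx5, against 2 without antibody and 0 in WT. In HEK293 cells there were 10 in S9.6, against 9 in IgG, 8 in RNH1 and 7 in FLAG-MCM8. With 1 library per group these differences were not tested, and the lists differ in depth. They also differ in size, with 4314 peaks without antibody against 9605 in KO, 12259 in shControl and 11768 in shDdx5. Peaks of this kind were not counted over all genes, so no background share is given.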

How the results depend on the processing

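Over 15 results and 8 alternatives, any part of the peak in the window and a window of 3 kb kept all counts within 1.5 times and all differences in direction, as did leaving out peaks that overlap a control peak for the 12 results it applies to (not the control counts or FLAG-MCM8 minus IgG). With a fold of at least 4, the genes with a promoter peak fell to 6 in WT, 3 in KO, 2 in shControl, 9 in shDdx5, 2 in IgG and 11 in RNH1 (4.69%, 7.32%, 5.82%, 11.8%, 3.12% and 17.6% of all genes, with KO and shControl below these shares), the difference between shDdx5 and shControl to 7, and the genes in all 4 S9.6 MEF lists to 1. With a q of 0.05 or lower there were 5 in KO and 13 in shDdx5, and that difference was 7. With 6481 peaks from each S9.6 MEF list, shDdx5 had 12 and the difference was 5. The difference KO minus WT was -3 in these 3 settings, against -1. With the annotated gene start alone, IgG had 1 (2.08% against 2.06% of all genes) and KO minus WT was 0. On those terms the shares were 35.4% against 23.8% in S9.6, 33.3% against 19.0% in RNH1 and 16.7% against 7.75% in FLAG-MCM8. With a window of 500 bp, the difference RNH1 minus S9.6 turned from -1 to 1. The cause of these shifts was not tested beyond the smaller number of peaks or start sites that each alternative leaves. No paired analysis was possible because each group has 1 library. Peaks at or near 6 or 7 fragments limit what absence of a peak means in MEFs.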

Other observations

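Inside DDX46, for a splicing helicase, S9.6 had a peak of fold 7.37 and −log10 q 26.0 and RNH1 one of fold 5.89 and −log10 q 17.0, in an intron and at the promoter of C5orf24. Of the peaks inside helicase genes and away from their promoters in HEK293 cells, these had the highest −log10 q, and DDX46 had no peak at its own promoter there. An intron of DDX24 held peaks of fold 4.73 in S9.6 and 6.62 in RNH1. DHX8 held 4 peaks in its body in IgG and 2 in S9.6, and 1 FLAG-MCM8 peak at its promoter.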
